A study of Mus musculus with 4 samples.

Results

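Type I interferon-stimulated genes are the set of antiviral effectors, sensors and regulators that a cell switches on after interferon alpha or beta binds its receptor. The 45 genes described here were listed by gene symbol as antiviral effectors and other genes induced by type I interferon, among 19938 genes that could be named on the arrays. Of the 45, 43 were measured on a probe set that names 1 gene, and each was read at its brightest such probe set. Isg15 was covered by a probe set that lists more than 1 gene, so it has no value here, and Ifi44 was not analysed here.

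The cells were mouse dendritic cells grown from bone marrow in medium with 20 ng/mL GM-CSF and 10% serum. On day 10 they were electroporated either with an siRNA that silences NR4A3, a nuclear receptor with no settled ligand, or with a control siRNA. LPS, a component of bacterial outer membranes that TLR4 detects, was given at 100 ng/mL 24 hours later, and cells were harvested after another 24 hours. The 4 groups were NR4A3 siRNA with LPS, control siRNA with LPS, NR4A3 siRNA unstimulated and control siRNA unstimulated, with 1 array each. All 4 groups had been electroporated with an siRNA, and no group without one was measured. On the strain the labels disagree: the growth protocol has BALB/c mice, and the sample characteristics have C57BL/6. Values are log2 expression levels made by RMA, a method that combines the probes of a gene and gives all arrays a common distribution.

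In dendritic cells LPS drives interferon beta through the adaptor TICAM1, the kinases TBK1 and IKBKE and the factor IRF3. Secreted interferon binds IFNAR1 and IFNAR2, whose kinases JAK1 and TYK2 activate STAT2. With IRF9, STAT2 is part of the complex ISGF3, which binds the interferon-stimulated response element (ISRE) in promoters of interferon-stimulated genes. IRF7, itself a product of the pathway, extends the response.

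Each group had 1 array, so differences between a pair of arrays are given as values without a test. Such a difference was counted when it was at least 2-fold (or 1.5-fold where stated) and the brighter array reached 6.66, the median of all named genes. The average effect of LPS over both siRNAs, and of NR4A3 siRNA over both states, was tested with limma over all 10592 genes that reached 6.66 on any array. That fit has 1 residual degree of freedom, and Benjamini-Hochberg adjusted p-values under 0.05 were called. The degree of freedom is the difference between the LPS effects of the 2 siRNAs, so a gene with a large difference gets a wide standard error (SE). These p-values weigh an effect against that difference, in the gene and pooled over all genes, and not against a spread between replicates. Nothing in the labels states whether the cultures were separate. In whole cultures, fewer cells of a type and less RNA per cell cannot be told apart.

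The silenced gene was checked first. Nr4a3 stood at 9.39 with NR4A3 siRNA and 11.77 with control siRNA under LPS, and at 7.15 with NR4A3 siRNA and 11.21 with control siRNA in unstimulated cells. It was thus 5.21-fold and 16.6-fold lower with its siRNA. Its relative Nr4a2 was 2.28-fold lower under LPS, at 8.60 with NR4A3 siRNA and 9.79 with control siRNA, and 1.24-fold lower without LPS. Of the dendritic cell genes, Itgax, Cd74, H2-Aa and H2-Ab1 lay between 12.27 and 13.47 on the 4 arrays, Zbtb46 between 6.82 and 7.46 and Batf3 between 7.66 and 8.08, while Flt3 stayed below 6.66 on every array. The macrophage genes Csf1r and Adgre1 lay between 11.08 and 13.07. Of 10 dendritic cell markers, 9 reached 6.66 on at least 1 array, as did 8 of 9 macrophage markers and 3 of 5 plasmacytoid dendritic cell markers measured. So did 4 of 5 fibroblast, 2 of 5 mast cell and basophil, 1 of 4 T cell and 1 of 8 granulocyte markers measured. Of the B cell, NK cell and erythroid markers 0 did. Over all 19938 named genes, 10592 did. Siglech and Ccr9, markers of plasmacytoid dendritic cells, the professional producers of type I interferon, peaked at 5.97 and 6.05. From the same list Tcf4 lay between 8.99 and 9.89 and Cox6a2 between 6.82 and 7.26, while Spib reached 6.66 on 1 array.

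Nearly all of the interferon-stimulated genes rose with LPS. In the average over both siRNAs, 42 of the 43 measured genes rose and 1, Ifi27, fell (limma, adjusted p under 0.05), whereas 15.6% of all tested genes rose and 14.4% fell. Both LPS arrays lay above both unstimulated arrays for the same number of members, 42 of 43, against 28.4% of all genes. Pair by pair, 38 of 43 were at least 2-fold higher with LPS under NR4A3 siRNA, where 5.31% of genes were, and 37 of 43 under control siRNA, where 5% were. At 1.5-fold 41 of 43 were higher under each siRNA, beside 10.3% of genes with NR4A3 siRNA and 10.2% with control siRNA. Ifi27 was the 1 member lower with LPS under either siRNA: 47.6% of genes were lower by any size, 6.88% by 1.5-fold and 2.71% by 2-fold with NR4A3 siRNA, and 51.7%, 9.44% and 3.83% with control siRNA. The median LPS difference over the members was 1.92 (log2) with NR4A3 siRNA and 1.67 with control siRNA, beside 0.02 and -0.02 over all genes tested. At least 4-fold higher levels under both siRNAs were reached by 18 members, where 1.39% of all genes did so, and at least 8-fold by 7, where 0.444% did. All 43 reached 6.66 on at least 1 LPS array. Without LPS, 3 members lay below it with NR4A3 siRNA (Ifit1, Mx1 and Mx2) and 1 with control siRNA (Mx2). Their LPS differences, and their siRNA differences without LPS, are therefore approximate. Cell type markers moved with LPS too. In the same test 5 of 8 macrophage markers fell (Mrc1 by 3.92, C1qa, C1qb, C1qc and Mertk) and 2 rose (Adgre1 and Fcgr1), and of 9 dendritic cell markers 2 rose (Irf4 and Cd86) and 1 fell (Itgax). Of 4 fibroblast markers tested, Dcn rose by 2.97 (log2), while Col1a1 (-0.10), Col1a2 (-0.09) and Col3a1 (-0.10) did not pass. Of 2 mast cell markers, Hdc rose by 1.08 and Gata2 (0.18) did not pass. Of 3 plasmacytoid markers, Tcf4 rose by 0.64, Spib fell by 1.14 and Cox6a2 (0.32) did not pass. The 1 T cell marker tested, Cd2, fell by 2.14. Hdc reached 6.66 only on the LPS arrays, Cd2 only on the unstimulated arrays and Spib on 1 array, so the effects of Hdc, Cd2 and Spib are approximate. The part of the markers in the LPS differences was not tested.

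**Figure D1:**
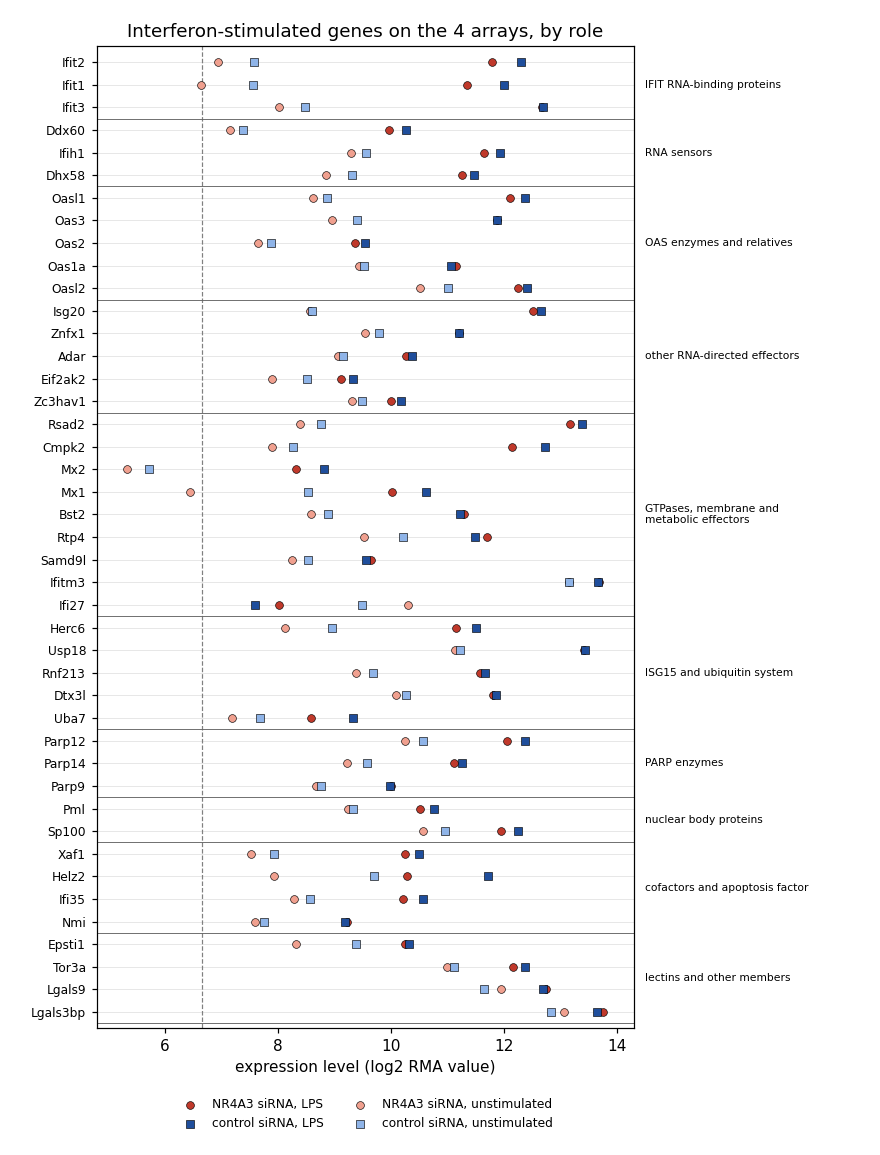
Expression level (log2 RMA value, horizontal axis) of the 43 measured interferon-stimulated genes on each of the 4 arrays, grouped by role; each point is 1 array and the dashed line is 6.66. For every gene but Ifi27 both LPS points lie to the right of both unstimulated points, and the NR4A3 siRNA point (circle) often lies left of the control siRNA point (square) of the same state.

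The IFIT proteins, which bind foreign RNA and block its translation, were among the members with the widest LPS differences. Ifit2 stood at 11.80 with NR4A3 siRNA and 12.31 with control siRNA under LPS, against 6.95 with NR4A3 siRNA and 7.58 with control siRNA in unstimulated cells. Ifit1 stood at 11.36 with NR4A3 siRNA and 12.01 with control siRNA under LPS, against 6.65 with NR4A3 siRNA and 7.56 with control siRNA in unstimulated cells. All Ifit levels were thus far apart between LPS and no LPS, and for Ifit1 and Ifit2 the NR4A3 siRNA array was the lower of each pair. Ifit3 stood at 12.68 with NR4A3 siRNA and 12.70 with control siRNA under LPS, so the siRNAs were level there, against 8.03 with NR4A3 siRNA and 8.48 with control siRNA without LPS. The average LPS effect was 4.79 ± 0.10 (log2, SE; limma adjusted p = 1.92e-05) for Ifit2, 4.58 ± 0.11 for Ifit1 and 4.43 ± 0.13 for Ifit3.

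Of the other antiviral effectors, Rsad2 (viperin, which makes a chain-terminating nucleotide) and Cmpk2, a mitochondrial nucleotide kinase, are neighbouring genes and moved alike with LPS. Rsad2 stood at 13.17 with NR4A3 siRNA and 13.38 with control siRNA under LPS, against 8.39 with NR4A3 siRNA and 8.77 with control siRNA unstimulated. Cmpk2 stood at 12.15 with NR4A3 siRNA and 12.73 with control siRNA under LPS, against 7.90 with NR4A3 siRNA and 8.27 with control siRNA unstimulated. Their average LPS effects were 4.70 ± 0.10 and 4.35 ± 0.11 (log2, SE). The gene for the RNA exonuclease Isg20 had nearly the same level under either siRNA in each state. It stood at 12.52 with NR4A3 siRNA and 12.66 with control siRNA under LPS, against 8.57 with NR4A3 siRNA and 8.61 with control siRNA unstimulated, a difference of 3.95 (log2) with NR4A3 siRNA and 4.05 with control siRNA.

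The following 5 promoters show matches to the ISRE core (GAAA, any 2 bases, GAAA, on either strand) in capitals. They are 3 genes with a large LPS effect (Ifit1, Ifit3, Rsad2), the gene with the smallest rise (Ifitm3), and Helz2. The difference of Helz2 between the siRNAs passed the test in every alternative run, and its window has no exact match. The search does not cover variants of the core, such as gaaacgaaa in the Helz2 window. Each promoter is the RefSeq window of 300 bases, 250 before and 50 after the gene start. All are on build GRCm38.p6 and written in the direction of the gene.
Ifit1 (chr19:34640639-34640938, plus strand): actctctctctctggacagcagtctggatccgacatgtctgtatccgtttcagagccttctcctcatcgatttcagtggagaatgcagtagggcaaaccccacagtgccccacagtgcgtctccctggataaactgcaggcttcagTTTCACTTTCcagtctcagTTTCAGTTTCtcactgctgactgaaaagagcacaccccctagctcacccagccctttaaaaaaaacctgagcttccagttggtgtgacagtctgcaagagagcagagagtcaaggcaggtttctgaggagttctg
Ifit3 (chr19:34583279-34583578, plus strand): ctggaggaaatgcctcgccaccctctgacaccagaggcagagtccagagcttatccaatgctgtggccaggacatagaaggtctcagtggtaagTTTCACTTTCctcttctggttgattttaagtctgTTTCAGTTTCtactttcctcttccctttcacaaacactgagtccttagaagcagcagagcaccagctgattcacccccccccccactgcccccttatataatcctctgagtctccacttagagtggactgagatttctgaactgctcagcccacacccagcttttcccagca
Rsad2 (chr12:26456403-26456702, minus strand): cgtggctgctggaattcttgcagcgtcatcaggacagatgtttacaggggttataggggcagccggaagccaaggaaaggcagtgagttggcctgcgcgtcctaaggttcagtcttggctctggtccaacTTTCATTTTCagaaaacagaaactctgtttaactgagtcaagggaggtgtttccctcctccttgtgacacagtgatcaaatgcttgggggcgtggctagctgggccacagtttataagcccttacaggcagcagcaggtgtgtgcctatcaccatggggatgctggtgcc
Ifitm3 (chr7:141010695-141010994, minus strand): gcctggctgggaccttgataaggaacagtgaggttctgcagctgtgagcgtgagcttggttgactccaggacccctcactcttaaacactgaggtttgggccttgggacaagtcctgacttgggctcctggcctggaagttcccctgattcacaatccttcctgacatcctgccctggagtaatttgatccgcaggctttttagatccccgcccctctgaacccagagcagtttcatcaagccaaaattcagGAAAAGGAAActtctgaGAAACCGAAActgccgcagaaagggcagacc
Helz2 (chr2:181241978-181242277, minus strand): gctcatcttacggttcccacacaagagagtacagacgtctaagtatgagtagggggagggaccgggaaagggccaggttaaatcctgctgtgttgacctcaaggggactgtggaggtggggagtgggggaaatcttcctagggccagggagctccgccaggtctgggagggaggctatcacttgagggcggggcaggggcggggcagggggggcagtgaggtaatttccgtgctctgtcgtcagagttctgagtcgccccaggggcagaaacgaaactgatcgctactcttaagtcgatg

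Windows were found for 33 of the 43 measured members. The ISRE core was present for 11 of these 33 (33.3%), against 3.99% of the 27025 genes in the promoter table. The 11 were Ifit1, Ifit3, Rsad2, Ddx60, Oas3, Bst2, Ifih1, Oas1a, Eif2ak2, Lgals9 and Ifitm3, of which 7 had 2 matches. In Ifit1 and Ifit3 both matches lay on the other strand, at -104 and -85 from the start of Ifit1 and at -156 and -122 from that of Ifit3 (first base of the match, negative before the start). The 2 matches of Bst2 overlapped each other, as did those of Oas1a, and 2 matches (in Bst2 and Ifitm3) overlapped the GAS motif TTCNNNGAA. That motif was found for 24.2% of the members and 9.55% of all genes. The members with an ISRE core had average LPS effects between 0.52 and 4.70 with a median of 2.52 (log2), and the 22 without one, among them Ifit2, Cmpk2 and Isg20, had effects between 0.69 and 4.79 with a median of 1.61, so the ranges overlapped almost fully. The NR4A motif AAAGGTCA was found in 0 of the 33 members and 1.7% of genes, which says only that these letters are not in these windows. A match in a window is a description of its letters and was not tied to binding here.

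**Figure D2:**
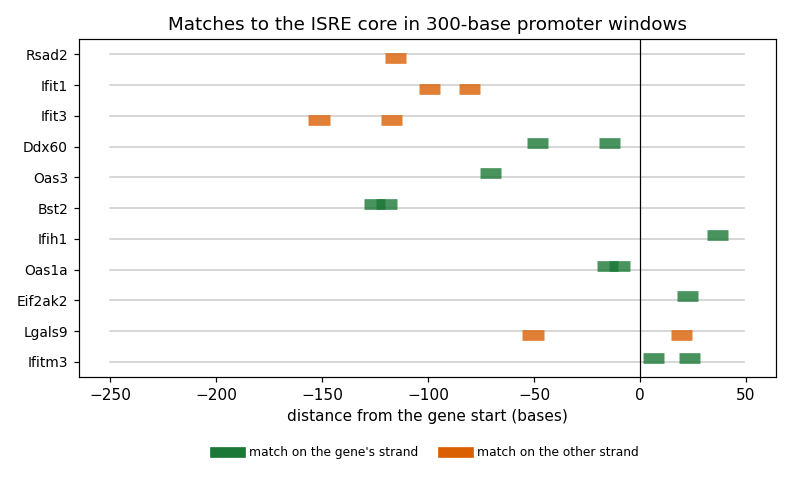
Position of each match to the ISRE core (bars 10 bases long) from the gene start (0, vertical line) in the 300-base windows of the 11 members that hold one, ordered from the largest (top) to the smallest average LPS effect. Matches lie on either side of the start, and Ifitm3 at the bottom holds 2 matches, as do Ifit1 and Ifit3 near the top.

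The RNA sensors rose together. Ddx60, a helicase known in human cells as a cofactor of viral RNA sensing, stood at 9.96 with NR4A3 siRNA and 10.27 with control siRNA under LPS, against 7.15 with NR4A3 siRNA and 7.39 with control siRNA unstimulated. Its average LPS effect was 2.85 ± 0.10 (log2, SE). Ifih1 (MDA5, the sensor of long double-stranded RNA) and Dhx58 (LGP2, its regulator) had average effects of 2.36 ± 0.10 and 2.29 ± 0.11.

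The OAS family makes oligoadenylates that switch on RNase L, which then cuts viral and cellular RNA. Oasl1, which lacks that activity and in mice restrains IRF7 translation, had the widest LPS difference of the family. It stood at 12.11 with NR4A3 siRNA and 12.38 with control siRNA under LPS, against 8.62 with NR4A3 siRNA and 8.87 with control siRNA unstimulated. Oas3 stood at 11.89 under either siRNA with LPS, against 8.97 with NR4A3 siRNA and 9.41 with control siRNA unstimulated. These differences were larger than those of the other family members. Oas2 stood at 9.37 with NR4A3 siRNA and 9.55 with control siRNA under LPS, against 7.65 with NR4A3 siRNA and 7.88 with control siRNA unstimulated. Oas1a, whose close copies could share its probes, stood at 11.15 with NR4A3 siRNA and 11.08 with control siRNA under LPS, against 9.44 with NR4A3 siRNA and 9.52 with control siRNA unstimulated. Oasl2 stood at 12.26 with NR4A3 siRNA and 12.41 with control siRNA under LPS, against 10.52 with NR4A3 siRNA and 11.01 with control siRNA unstimulated. The average LPS effects were 3.50 ± 0.10 (log2, SE) for Oasl1, 2.70 ± 0.13 for Oas3, 1.69 ± 0.10 for Oas2, 1.63 ± 0.10 for Oas1a and 1.57 ± 0.12 for Oasl2.

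Among the other genes that act on RNA, the rise was smaller. Znfx1, a helicase that senses viral RNA at mitochondria, had an average LPS effect of 1.54 ± 0.11 (log2, SE). Adar, which edits adenosines in double-stranded RNA, and Eif2ak2 (PKR, the kinase that halts translation on double-stranded RNA) had effects of 1.21 ± 0.10 and 1.02 ± 0.13. Zc3hav1 (ZAP), which marks CpG-rich RNA for decay, stood at 10.01 with NR4A3 siRNA and 10.18 with control siRNA under LPS, against 9.32 with NR4A3 siRNA and 9.50 with control siRNA unstimulated, an effect of 0.69 ± 0.10.

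The Mx GTPases trap viral ribonucleoproteins. RefSeq lists both Mx1 and Mx2 as transcribed pseudogenes in the C57BL/6J genome, so their signal is a transcript level and not a measure of a working protein. Mx2 stood at 8.33 with NR4A3 siRNA and 8.82 with control siRNA under LPS, against 5.34 with NR4A3 siRNA and 5.72 with control siRNA unstimulated. Mx1 stood at 10.03 with NR4A3 siRNA and 10.63 with control siRNA under LPS, against 6.45 with NR4A3 siRNA and 8.54 with control siRNA unstimulated. The Mx1 array with NR4A3 siRNA and no LPS was thus far below the other 3. Its LPS difference was 12.0-fold with NR4A3 siRNA and 4.26-fold with control siRNA, and that of Mx2 was 2.99 and 3.10 (log2). The average LPS effect was 3.05 ± 0.10 for Mx2 and 2.84 ± 0.33 for Mx1 (SE; limma adjusted p = 0.0022 for Mx1), and the Mx1 call was lost with a robust variance prior (adjusted p = 0.0514, within a range of 0.00101 to 0.0514 over 8 alternatives).

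Bst2 (tetherin, which holds budding virions at the membrane) rose by 2.52 ± 0.13 (log2, SE) and Samd9l by 1.21 ± 0.12. Ifitm3, which blocks virus fusion in endosomes, had a small difference. It stood at 13.68 with NR4A3 siRNA and 13.66 with control siRNA under LPS, against 13.15 under either siRNA unstimulated, an average effect of 0.52 ± 0.10 (limma adjusted p = 0.0115). Lgals3bp, a secreted glycoprotein that binds galectins, stood at 13.77 with NR4A3 siRNA and 13.65 with control siRNA under LPS, against 13.07 with NR4A3 siRNA and 12.83 with control siRNA unstimulated. Both genes were already among the brightest members without LPS. Lgals9 (galectin-9) stood at 12.76 with NR4A3 siRNA and 12.70 with control siRNA under LPS, against 11.95 with NR4A3 siRNA and 11.66 with control siRNA unstimulated.

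The ISG15 system attaches the ubiquitin-like protein ISG15 to other proteins. Its E1 enzyme gene Uba7, its main mouse ligase gene Herc6 and its protease gene Usp18, which also dampens signalling from IFNAR2, all rose with LPS. The average effects were 2.78 ± 0.14 (log2, SE) for Herc6, 2.24 ± 0.10 for Usp18 and 1.52 ± 0.11 for Uba7. Of the other ubiquitin ligases, Rnf213 rose by 2.09 ± 0.11 and Dtx3l by 1.66 ± 0.10. Dtx3l lies between Parp9, with which its protein pairs, and Parp14. The ADP-ribosyltransferase genes rose by 1.81 ± 0.10 (Parp12), 1.78 ± 0.11 (Parp14) and 1.28 ± 0.10 (Parp9).

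The remaining genes also rose. Pml and Sp100, which build nuclear bodies, had average effects of 1.36 ± 0.10 and 1.34 ± 0.10 (log2, SE). The binding partners Nmi and Ifi35 had effects of 1.52 ± 0.10 and 1.97 ± 0.10, the apoptosis factor gene Xaf1 one of 2.65 ± 0.10, and Tor3a, a torsin-type ATPase of the endoplasmic reticulum, one of 1.21 ± 0.10.

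Ifi27, a small hydrophobic protein of the ISG12 family, went the other way. It stood at 8.03 with NR4A3 siRNA and 7.60 with control siRNA under LPS, against 10.30 with NR4A3 siRNA and 9.49 with control siRNA unstimulated. It was the single member whose LPS arrays both lay below its unstimulated arrays, as 28.4% of all genes did. The average LPS effect was -2.08 ± 0.13 (log2, SE; limma adjusted p = 0.000241). Among 10353 genes compared under NR4A3 siRNA it ranked 10332nd from the highest, whereas Ifit2 ranked 9th and Rsad2 12th.

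**Figure D3:**
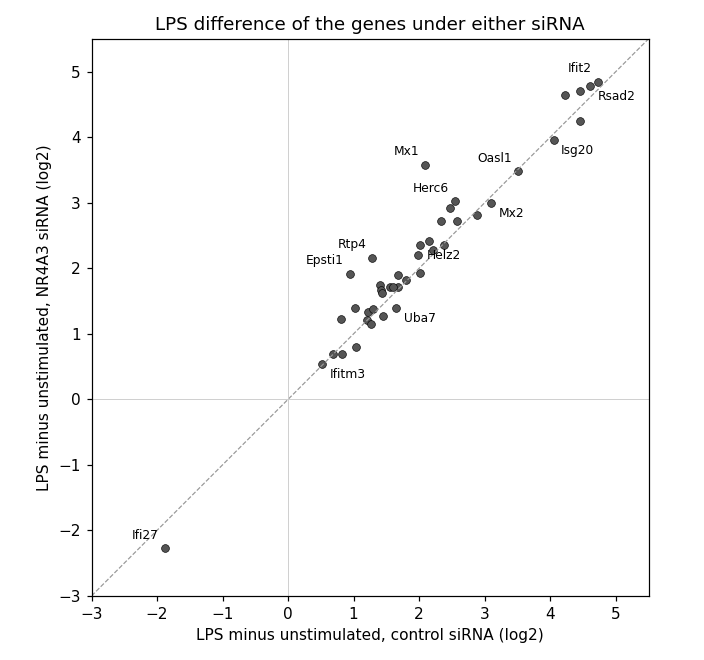
LPS minus unstimulated (log2 difference) with NR4A3 siRNA (vertical axis) against the same difference with control siRNA (horizontal axis); each point is 1 of 43 genes and the dashed line marks equal differences. Most points follow the line, Mx1, Epsti1 and Rtp4 lie above it, and Ifi27 alone lies below 0 on both axes.

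The LPS differences of the 2 siRNAs come from arrays with none in common. Over the 43 members their sign was the same in 43, as it was for 78.4% of all genes tested. Pearson's r was 0.968 across the members and 0.894 across all 10592 genes, which share the arrays and are not independent replicates.

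NR4A3 siRNA went with slightly lower levels of most of these genes. Of the 43, 31 were lower with NR4A3 siRNA under LPS by any size, against 41.8% of genes tested, and 38 of the 42 compared were lower without LPS, against 46.2% (Mx2, too dim there to be compared, was lower as well). In both states 31 were lower, where 29.6% of all genes were. These counts ran from 31 to 35 with LPS, 39 to 40 without LPS (Mx2 included) and 31 to 35 in both states over 4 other ways to scale or summarise the arrays. The median was -0.17 (log2) under LPS and -0.31 without LPS, beside 0.05 and 0.02 over all genes tested. The median size of the difference over all genes tested, without its sign, was 0.18 under LPS and 0.15 without LPS. Within 1.5-fold in both states were 33 of 43 members, and the share of all genes that were was not counted. At 2-fold, 1 of 43 was lower under LPS (1.67% of genes) and 3 of 42 without LPS (1.72%), and 0 were higher in either state (0.47% and 0.205%). At 1.5-fold, 4 of 43 were lower under LPS (4.73% of genes) and 0 higher (3.73%). Without LPS 8 of 42 were lower (4.69%) and 1, Ifi27, was higher (1.62%). The members lower without LPS thus outnumbered the background share, while the 4 under LPS are too few for such a reading. The members share the arrays and are not independent. In the average over both states 4 of 43 fell and 0 rose (limma), beside 3.58% and 1.98% of all genes. Over all genes 379 fell and 210 rose, a split that was 223 and 55 with cyclic loess between the arrays.

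**Figure D4:**
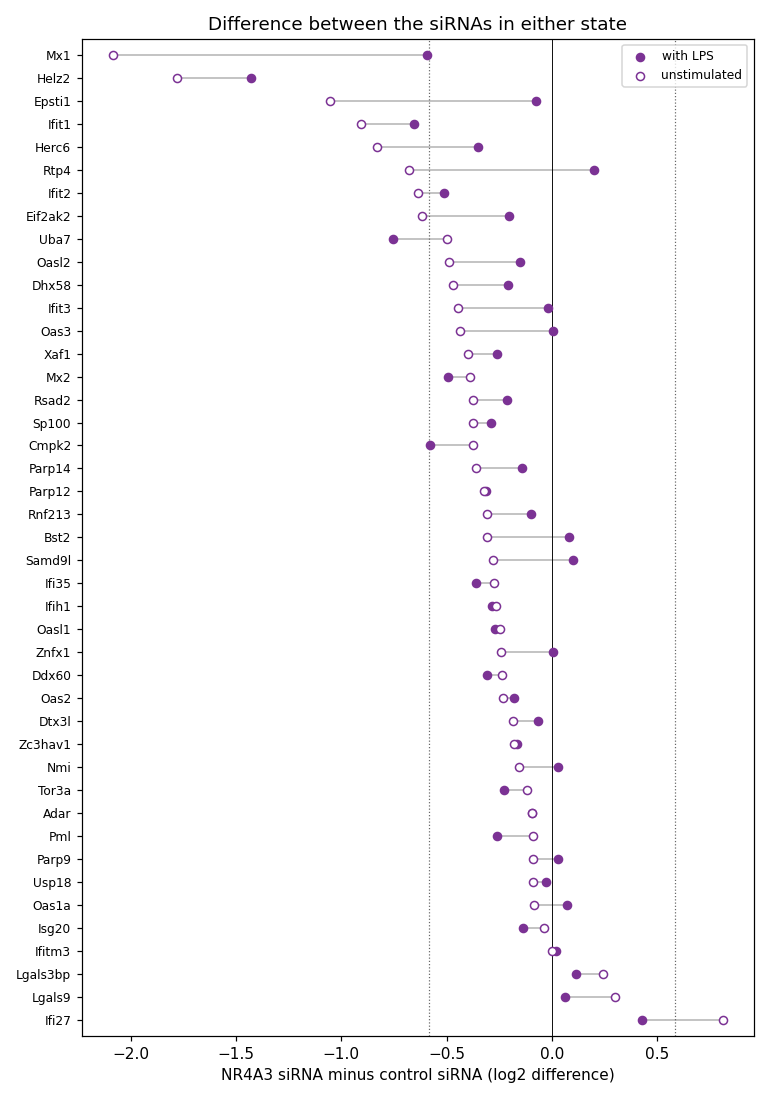
NR4A3 siRNA minus control siRNA (log2 difference, horizontal axis) for the 43 genes with LPS (filled) and unstimulated (open), joined by a line and ordered by the unstimulated difference; dotted lines mark 1.5-fold. Mx1, Helz2 and Epsti1 lie farthest left without LPS, Helz2 stays there with LPS, and Ifi27 lies farthest right in both states.

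Helz2, a helicase known as a coactivator of PPAR nuclear receptors, had the largest average difference between the siRNAs. It stood at 10.29 with NR4A3 siRNA and 11.72 with control siRNA under LPS, and at 7.93 with NR4A3 siRNA and 9.71 with control siRNA in unstimulated cells. It was thus 2.69-fold and 3.44-fold lower, and ranked 60th and 52nd from the lowest among all genes tested. Its average silencing effect was -1.60 ± 0.12 (log2, SE; limma adjusted p = 0.00792), a call that held in 8 of 8 alternatives. LPS raised it under either siRNA nonetheless, by 5.13-fold with NR4A3 siRNA and 4.02-fold with control siRNA.

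The other 3 genes that fell on average were Ifit1, Uba7 and Ifit2. The silencing effects were -0.78 ± 0.11 (log2, SE; limma adjusted p = 0.023) for Ifit1, -0.63 ± 0.11 (adjusted p = 0.0378) for Uba7 and -0.57 ± 0.10 (adjusted p = 0.0367) for Ifit2. Uba7 stood at 8.59 with NR4A3 siRNA and 9.34 with control siRNA under LPS, and at 7.19 with NR4A3 siRNA and 7.69 with control siRNA unstimulated. Of these, Ifit1 kept its call in 7 of 8 alternatives (adjusted p 0.0151 to 0.0546), and Ifit2 (0.0274 to 0.0686) and Uba7 (0.0269 to 0.0751) in 5 of 8.

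For several members the gap between the siRNAs was wider in unstimulated cells. There Mx1, at 6.45 with NR4A3 siRNA and so below 6.66, was about 4.24-fold lower under NR4A3 silencing. It ranked 32nd from the lowest among 10257 genes, and was 1.51-fold lower under LPS. Its average silencing effect, -1.34 ± 0.33 (log2, SE), did not pass the test (limma adjusted p = 0.0742). Epsti1 stood at 10.25 with NR4A3 siRNA and 10.33 with control siRNA under LPS, and at 8.33 with NR4A3 siRNA and 9.39 with control siRNA unstimulated. Epsti1 was thus nearly level between the siRNAs with LPS and 2.07-fold lower with NR4A3 siRNA without it. Herc6 stood at 11.16 with NR4A3 siRNA and 11.51 with control siRNA under LPS, and at 8.14 with NR4A3 siRNA and 8.97 with control siRNA unstimulated. Rtp4, a Golgi chaperone of receptors, stood at 11.70 with NR4A3 siRNA and 11.50 with control siRNA under LPS, and at 9.53 with NR4A3 siRNA and 10.21 with control siRNA unstimulated. For Rtp4 the order of the siRNAs was turned round between the states.

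The difference of the LPS effects, that with NR4A3 siRNA minus that with control siRNA, was largest for Mx1 at 1.49 (log2), followed by Epsti1 (0.98), Rtp4 (0.88), Herc6 (0.48) and Oas3 (0.44). The Mx1 value is approximate, because its unstimulated array with NR4A3 siRNA lay below 6.66. The difference of the LPS effects uses the last degree of freedom of the 4 arrays, so it was not tested. Its median over the members was 0.12, beside 0.05 over all genes, and it was above 0 for 29 of 43 members, where 59.1% of all genes were. The same number is, by construction, the change of the siRNA difference between the states.

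Ifi27 was the member highest with NR4A3 siRNA relative to control siRNA, by 0.43 (log2) under LPS and 0.81 without LPS, where it ranked 51st from the highest. Its average silencing effect of 0.62 ± 0.13 (SE) did not pass the test (limma adjusted p = 0.051). Lgals3bp, Lgals9 and Ifitm3 were the other members higher with NR4A3 siRNA in both states, by at most 0.30, as were 41% of all genes. Isg20, Usp18 and Adar differed by at most 0.14 in size in both states.

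Marker genes of several cell types moved with the siRNAs as well. Summed levels add unlogged values, so a single bright gene that moves can carry a sum. The summed level of 9 macrophage markers was 14.39 (log2) with NR4A3 siRNA and 13.93 with control siRNA under LPS, and 14.25 with NR4A3 siRNA and 13.83 with control siRNA unstimulated. The summed level of 10 dendritic cell markers was 15.20 with NR4A3 siRNA and 15.48 with control siRNA under LPS, and 15.10 with NR4A3 siRNA and 15.40 with control siRNA unstimulated. The summed level of 5 plasmacytoid dendritic cell markers was 9.97 with NR4A3 siRNA and 10.30 with control siRNA under LPS, and 9.67 with NR4A3 siRNA and 9.87 with control siRNA unstimulated. The members of each list did not all go with its sum. With NR4A3 siRNA 7 of 9 macrophage markers were higher under LPS and 8 without LPS, and 9 of 10 dendritic cell markers were lower under LPS and 7 without LPS. Of all genes tested, 41.8% were lower under LPS and 46.2% without LPS. The counts include Cd163 and Flt3, which stayed below 6.66 on every array. Itgax was higher in both states. Of the 5 plasmacytoid markers 3 were lower in each state, and Siglech and Ccr9 stayed below 6.66. Under LPS the fall of their sum came from Tcf4, at 9.41 with NR4A3 siRNA and 9.89 with control siRNA. Without LPS it came mostly from Spib, at 6.20 with NR4A3 siRNA and 7.56 with control siRNA. Cox6a2 was higher with NR4A3 siRNA in both states. In the additive test 4 of the 8 macrophage markers bright enough to be tested rose with NR4A3 siRNA (Mrc1, C1qa, C1qb and C1qc), where 1.98% of all genes rose, and 2 of 9 dendritic cell markers fell (Irf4 and Cd86), where 3.58% fell. Ccr7, a marker of mature dendritic cells, was 1.67-fold lower with NR4A3 siRNA under LPS and 11.6-fold lower without LPS. Without LPS it stood at 9.46 with NR4A3 siRNA and 12.99 with control siRNA. Most of the fall of the dendritic cell sum without LPS, and a large part under LPS, was thus Ccr7. The part of the markers in the differences of the interferon-stimulated genes was not tested.

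The genes upstream were taken from lists of 32 entries, of which 29 were measured. Among the ligands Ifnb1 lay between 4.97 and 5.10 on the 4 arrays, far below 6.66. Of 7 ligands measured only Ifna5 reached 6.66, at 7.08 to 7.41, and it did not pass the LPS test (limma adjusted p = 0.24), while the other 6 were too dim to be tested. In the route from TLR4 to interferon beta 7 of 10 genes rose with LPS and 0 fell. Over all genes tested 15.6% rose and 14.4% fell. Irf7, the factor that amplifies the response, stood at 13.52 with NR4A3 siRNA and 13.51 with control siRNA under LPS, against 10.67 with NR4A3 siRNA and 11.26 with control siRNA unstimulated, an average LPS effect of 2.55 (log2). The kinase gene Ikbke had an effect of 0.99 and the factor gene Irf1 one of 1.12, whereas those of Irf3 (0.13), Ticam1 (0.09) and Tlr4 (-0.24) did not pass the test.

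Of the receptor and its kinases, 2 of 4 genes rose with LPS, Ifnar2 (0.53) and Tyk2 (0.46), while Ifnar1 (0.16) and Jak1 (0.16) did not pass. Both ISGF3 subunits measured rose, Stat2 by 2.09 and Irf9 by 0.71 (log2). Stat2 stood at 11.59 with NR4A3 siRNA and 11.89 with control siRNA under LPS, against 9.46 with NR4A3 siRNA and 9.83 with control siRNA unstimulated. Of 6 inhibitors and brakes 4 rose, led by the receptor inhibitors Socs1 (2.44) and Socs3 (2.43). For these lists too, the share of all genes tested that rose was 15.6%. In the silencing test 3.58% of all genes fell and 1.98% rose. Of these 29 genes, less the ligands too dim to be tested, only Tyk2 passed, and it was not followed over the alternatives. It stood at 9.11 with NR4A3 siRNA and 9.66 with control siRNA under LPS, and at 8.58 with NR4A3 siRNA and 9.28 with control siRNA unstimulated, an average silencing effect of -0.62 (limma adjusted p = 0.0321).

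**Figure D5:**
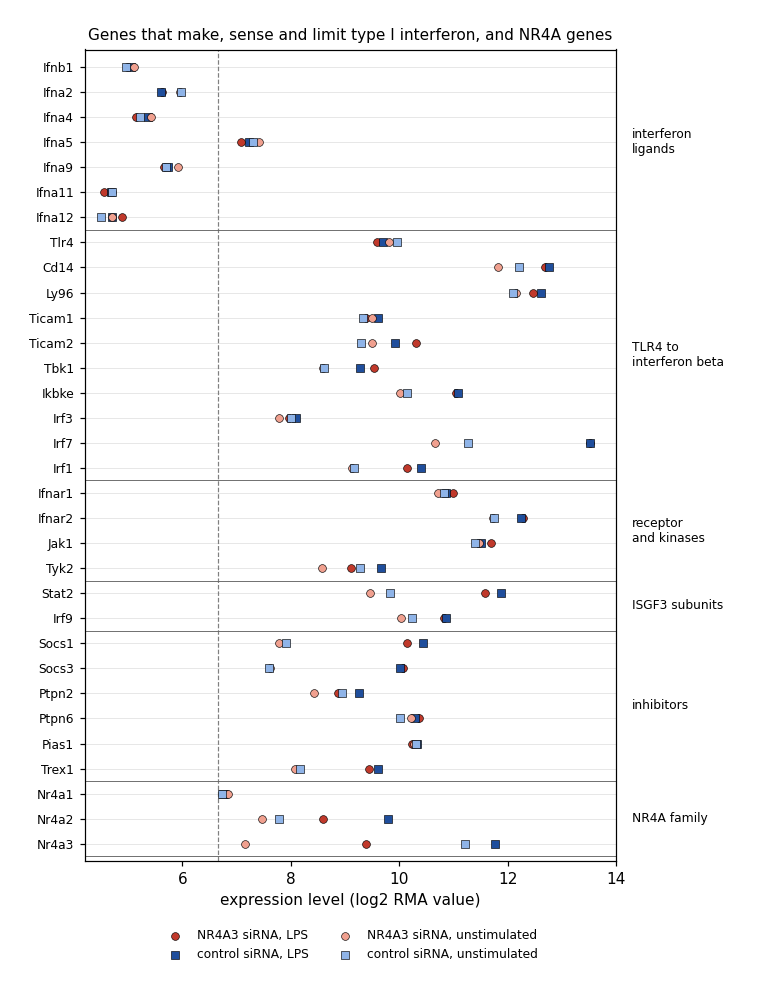
Expression level (log2 RMA value, horizontal axis) on each of the 4 arrays of genes that make, sense and limit type I interferon, and of the NR4A genes; the dashed line is 6.66. Ligand genes other than Ifna5 lie left of the line on all arrays, Irf7, Stat2, Socs1 and Socs3 are farthest apart between LPS and no LPS, and Nr4a3 shows the effect of its siRNA.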

How the data were processed

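RNA of the 4 groups was hybridised to Affymetrix Mouse Gene 1.0 ST arrays, 1 per group. The authors deposited log2 values: the labels give RMA and quantile normalization, and Expression Console 1.1 is among the tools in the submitters' processing notes. Build and filters before deposit were not stated. Quantile normalization hides a shift shared by most genes.

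Of 28856 probe sets, 21789 carry 1 gene symbol, 1621 several and 5446 none here. A gene was read at its brightest single-symbol probe set. Only Rnf213 among the members had more than 1, and they moved alike. The additive fit (siRNA and LPS) used limma 3.58.1 in R 4.3.3, with 4.76 prior degrees of freedom, and was tested on simulated data. The number of arrays limits the precision.

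Members, lists and tests were chosen with earlier results of these data known. All 4 values are given for the 10 members with the largest and the 5 with the smallest average LPS effect, the 8 with the largest siRNA difference, the 5 with the largest difference of LPS effects, and all Ifit, Oas and Mx genes. Of the T cell, mast cell and fibroblast markers 1, 2 and 4 reached 6.66. Promoters and gene neighbours come from RefSeq (GRCm38.p6). Alternatives varied scaling, filter, fold threshold, variance prior and probe set summary.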

Additional observations from a re-analysis of the deposited data

How the results depend on the processing

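No paired analysis was possible because each group holds 1 array. For the same reason no array could be left out: the additive fit would keep no residual degree of freedom. The LPS result moved little: 41 or 42 members rose and 1 fell in all 8 alternatives to the test, and the median LPS difference over the members ran from 1.83 to 1.97 (log2) with NR4A3 siRNA and from 1.65 to 1.73 with control siRNA over 3 scalings and the mean of probe sets. The median siRNA difference ran from -0.23 to -0.15 under LPS and from -0.32 to -0.26 without LPS, and that of the difference of LPS effects from 0.07 to 0.15. No called value changed direction in any alternative. Of the single-member differences, 24 moved by over 0.11 (log2, the prior SD of the fit) with repeated quantile normalization and 1 with the mean of probe sets.

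The silencing test was less stable. Against 4 members that fell and 0 that rose, 2 fell with repeated quantile normalization, 1 (Helz2) fell with no filter on dim genes, and 1 (Ifi27) rose with the filter at the 75th percentile, with an intensity trend in the prior and with the mean of probe sets, where Cmpk2 also fell, making 5 members (adjusted p = 0.0489). At 1.5-fold, 4 members were lower with NR4A3 siRNA under LPS, and 8 were lower and 1 higher without LPS; at 3-fold 0 were lower under LPS and 2 (Mx1 and Helz2) without LPS. Over all genes, the 210 that rose and 379 that fell on average with NR4A3 siRNA became 109 that rose with repeated quantile normalization, 55 and 223 with cyclic loess, 322 that rose with the mean of probe sets, and 24 and 132 with no filter. Centring each array on its median gave 114 that rose. With the filter at the 75th percentile 988 genes fell with LPS on average against 1524, 250 against 396 were 2-fold lower with LPS under control siRNA, and 102 against 176 were 2-fold lower with NR4A3 siRNA without LPS. The cause was not tested, except that a stricter filter tests fewer genes. At 1.5-fold and 3-fold the genes higher with LPS were 1070 and 278 with NR4A3 siRNA (550 at 2-fold) and 1058 and 260 with control siRNA (517), and those lower were 712 and 80 (281) and 977 and 122 (396). The genes higher with NR4A3 siRNA were 381 and 7 under LPS (48) and 166 and 5 without LPS (21), and those lower were 483 and 44 (171) and 481 and 63 (176).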
